A study of Mus musculus with 6 samples.

Results

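The nonneuronal cells of the olfactory bulb of mice trained on odors were compared with those of control mice, cluster by cluster. Cells were taken from the 22 nonneuronal clusters of the deposited annotation, and their library from its library column. Clusters carry the names of that annotation, and some numbers differ from those the study uses. By equal numbers of cells in every library, MicroG1, MicroG2, Astro2, Astro3, Mes1 and Mes2 here are MicroG2, MicroG1, Astro3, Astro2, Mes2 and Mes1 there, and OEC2, OEC3, OEC4 and OEC5 here are OEC5, OEC4, OEC3 and OEC2 there. Of 51426 annotated cells in the series, 28925 were nonneuronal, and 19105 of those came from the 2 control and 2 trained libraries. All mice were of the C57BL/6NJ strain, and bulbs were taken at 14 weeks of age, after 6 weeks of manipulation. Trained mice were deprived of water and learned to tell odors apart for a water reward. The labels describe the controls as mice without manipulation, and the study names naive controls for its single-cell sequencing. Its text also describes the open side of naris-occluded mice as a control, and does not state whether that side entered the control libraries. A further 2 libraries came from naris-occluded mice and entered the fit to estimate the spread, and their levels are given beside those of the groups compared. Each library was a pool of 3 mice, males in replicate 1 and females in replicate 2. The main model has no term for sex, so its p-values measure a spread between pools that holds the difference between the sexes. A fit with the sex of the pool as a block is given at the end. Training, water deprivation and the handling of the mice cannot be told apart with these groups.

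The bulb is the first relay of smell, and its glia and vessels meet incoming axons there. Olfactory ensheathing cells (OECs) are glia that wrap the axons of sensory neurons, astrocytes take up transmitter and store glycogen, and myelinating oligodendrocytes (MyOligo) insulate output axons. Endothelial cells (EC) form the blood-brain barrier and are covered by mural cells, mesenchymal cells (Mes) form the coverings of the brain, and microglia (MicroG), monocytes (Mono) and macrophages (Mf) are its immune cells. Corticosteroids, heat and metals act on glia and vessels through well-known sets of target genes, among them Tsc22d3, Hspa8 and the metallothioneins, and interferons through another set that includes Isg15 and the Ifit genes.

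The 4 trained and control libraries held between 3794 and 5427 nonneuronal cells and between 7529884 and 10555894 nonneuronal molecules, counted by unique molecular identifiers (UMIs). The median cell had 1700 and 1669 UMIs in the male and female control pools and 1403 and 1737.5 in the trained pools, so the male trained library was the shallowest. Its median mitochondrial share was also the highest, 11.99%, against 10.4%, 10.5% and 9.72% in the male control, female control and female trained libraries. Of 28430 different nonneuronal barcodes in the 6 libraries, 490 occurred in more than 1 library. All 5 markers of a cluster's class were higher in it than in any other class in 14 of the 22 clusters, and at least 3 were in 21. The exception was EC2, where this held for Slco1c1 only and where OEC markers summed to 5878 CPM (counts scaled to a total of 1000000 per cluster and library), against 7793 CPM for its own. The endothelial markers also summed to more than the mural markers in Mural1, 10529 against 9873 CPM. Xist and Ddx3y, which mark female and male cells, matched the labelled sex of every pool when libraries were read from the annotation.

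No cluster passed the test of its share of nonneuronal cells, at an adjusted p under 0.05 by edgeR's quasi-likelihood test with Benjamini-Hochberg adjustment over the 22 clusters. The unadjusted p was under 0.05 for 3 of them, RBCs, Astro2 and MicroG3. A chi-square test of pooled trained against pooled control cells called 11, with the same adjustment. Like the chi-square test of the study it counts cells as replicates, but the study compared adult-born neurons over all its conditions. Red blood cells (RBCs) made up 1.47% and 0.510% of nonneuronal cells in the male and female control pools and 0.391% and 0.290% in the trained pools, a log2 difference of −1.54 ± 0.51 (SE) with an adjusted p of 0.173. As a cluster RBCs were called with the replicate number, which is the sex of the pool, as a block (adjusted p = 0.00268), with all annotated cells as offset (0.00261), with cells of at most 20% mitochondrial UMIs (0.0169) and without the male trained, the female trained or the female control library (adjusted p = 0.0200, 0.0301 and 0.000608), and Astro2, Astro3 and OEC1 without the female trained library (0.0495, 0.0495 and 0.0301). With clusters summed into 11 classes, the RBC class fell by the same test with an adjusted p of 0.0179, and no other class did. This class is the RBCs cluster alone, with the same cells. Only the other groups fitted beside it and the number of tests adjusted for differed. This class call was lost with the trained and control libraries only, with all annotated cells as offset and with TMM normalization factors. It was also lost with cells of at least 1000 UMIs and with cells of at most 20% mitochondrial UMIs. This call was lost without the male control library, where the log2 difference was −0.55 (adjusted p = 0.964), and without the female trained library (0.0558), and the share of RBCs in the naris-occluded libraries also differed between pools, 1.28% and 0.535%.

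Astro2, a small astrocyte cluster, made up 1.35% and 1.24% of control and 0.614% and 0.922% of trained nonneuronal cells, with a log2 difference of −0.78 ± 0.29 and an adjusted p of 0.173. MicroG3 stood at 2.73% and 3.24% in controls and at 4.69% and 3.98% after training, with a log2 difference of 0.54 ± 0.23 and an adjusted p of 0.225. MicroG3, Astro3, OEC3 and EC2 held the shallowest cells, with medians of 679 to 844.5 UMIs and of 13.3% to 25.1% mitochondrial UMIs in the trained and control libraries, and the part of this in their shares was not tested. EC2 made up 4.39% and 4.59% of control and 4.56% and 2.58% of trained cells, a log2 difference of −0.32 with an adjusted p of 0.569. Microglia as a class made up 12.4% and 14.2% of control and 16.1% and 16.7% of trained cells (adjusted p = 0.494). OECs, the most numerous class, held 39.5% and 39.3% of control and 36.04% and 40.8% of trained cells. The trained pools both lay above both control pools in 4 clusters and below them in 7. In 10 clusters the sign of the difference was opposite in the male and the female pools, with the widest gap in Mural1, whose share was higher in the male and lower in the female trained pool than in the control pool of the same sex. Astro3, one of the 10, had nearly equal female pools, and its difference rested on the male pool, with 5.91% and 6.17% in controls and 9.91% and 6.17% after training.

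**Figure D1:**
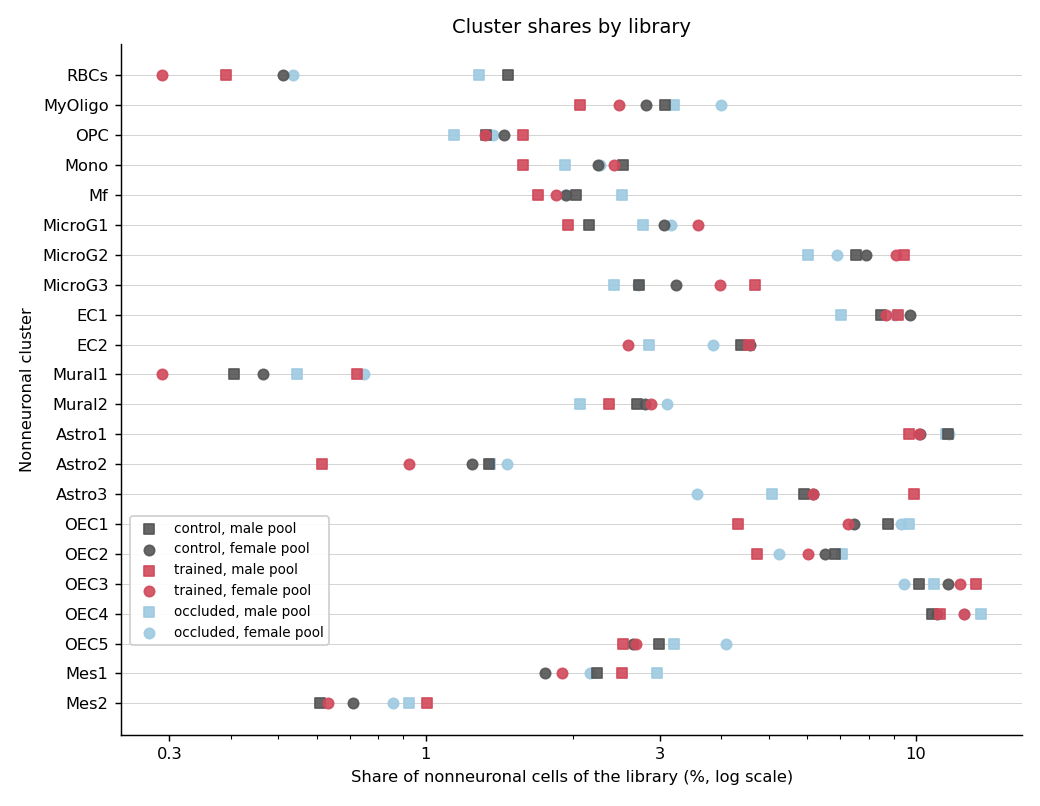
Share of each of the 22 nonneuronal clusters in the nonneuronal cells of each library, in percent on a log axis, with squares for male and circles for female pools. Trained and control points of most clusters lie close together, and RBCs and Astro2 lie lower in both trained pools.

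Gene expression was compared on summed counts, 1 sum for each cluster and library, with 110806 pairs of a gene and a cluster tested. All clusters came from the same libraries, so agreement of a gene between clusters is not replication. After training, 82 pairs were higher, 0.0740% of those tested, and 46 were lower, 0.0415%, at an adjusted p under 0.05 within the cluster by edgeR's quasi-likelihood test. These were 64 different genes higher and 35 lower, and none was called in both directions. Levels of both trained libraries lay above both control libraries in 17.6% of all pairs and below in 17.4%, and in 126 of the 128 called pairs the groups did not overlap. The gene lists used below were chosen with earlier results of these data known, so shares over a list are descriptive. The calls lay in 12 clusters, with 29 genes in EC1 (0.335% of those tested there), 24 in OEC4 (0.247%), 23 in OEC2 (0.296%) and 16 in Astro1 (0.166%). No gene was called in RBCs, oligodendrocyte precursors (OPC), Mono, Mf, MicroG1, MicroG3, either mural cluster or either mesenchymal cluster, where between 3 and 272 genes had an unadjusted p under 0.05. Without 1 library, the count of higher pairs ranged from 25, when the male control library was left out, to 325, when the female trained library was, and the count of lower pairs from 28 to 238 with the same libraries. Of the 82 higher pairs, 9 were called again without the male control library and 71 without the female trained library. Of the 46 lower pairs, 4 were called again without the male control library and 45 without the female trained library.

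**Figure D2:**
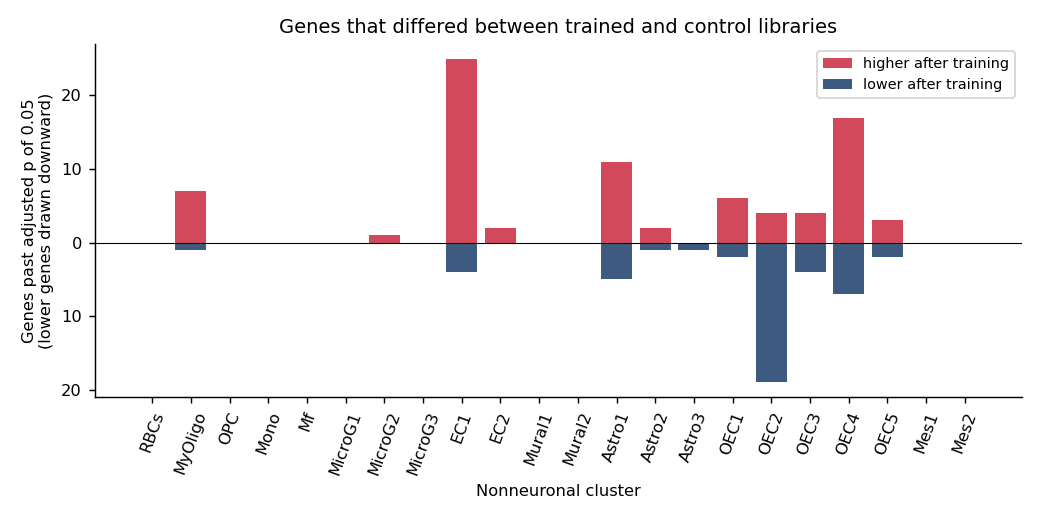
Number of genes higher and lower after training in each nonneuronal cluster, at an adjusted p under 0.05 by edgeR's quasi-likelihood test. EC1, OEC4, OEC2 and Astro1 hold most of the 128 calls, and most of those of OEC2 are lower.

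Tsc22d3, the glucocorticoid-induced leucine zipper, rose in 6 clusters after training and had the smallest adjusted p among the endothelial genes. In EC1 it stood at 171 CPM in the male and 158 in the female control pool and at 801 and 431 CPM in the trained pools, while the naris-occluded pools had 228 and 240 CPM. The log2 difference was 1.91 ± 0.20, with an adjusted p of 2.45e-05, and the gene passed the test under every alternative run. It was also more widely detected, in 25.9% and 24.7% of control and in 64.0% and 47.1% of trained EC1 cells. In MicroG2 the level rose from 29.7 and 33.8 CPM to 179 and 84.5 CPM, a log2 difference of 2.09 ± 0.30 (adjusted p = 0.00115), and the call, the only one in that cluster or 0.0132% of 7599 genes, was lost in none of the alternatives except DESeq2. Without the male trained library the log2 difference was 1.42. EC2 had 2 calls, Tsc22d3 and Hspa8, or 0.0490% of 4085 genes. Tsc22d3 rose there from 124 and 132 CPM to 492 and 164 CPM (log2 difference 1.52 ± 0.30), and was called neither without the male trained library, with an adjusted p of 0.933, nor without the male control library (0.355) or the female one (0.0565). This call was also lost with the replicate block (0.0533), with the trained and control libraries only (0.109), with cells of at most 20% mitochondrial UMIs (0.459), with cells of at least 1000 UMIs (0.670) and by DESeq2. In OEC1, OEC3 and OEC4 it rose by 0.84, 1.06 and 0.87 on the log2 scale, calls that were lost without either control library (adjusted p between 0.0615 and 0.207), and in OEC1 and OEC3 also without the male trained library (0.713 and 0.661). With cells of at least 1000 UMIs it was lost in OEC1 (0.0713) and OEC3 (0.151), and with cells of at most 20% mitochondrial UMIs in OEC1 (0.0700). Among the 6 clusters DESeq2 called Tsc22d3 in EC1 only. In each of these 6 clusters the male trained pool was the higher of the pair. The log2 difference was above 0 in 18 of the 19 clusters where the gene was tested, and both trained pools lay above both control pools in 14.

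A list of glucocorticoid-induced genes had 149 pairs of a gene and a cluster. Of these, 10 were higher (6.71%, against 0.0740% of all pairs) and 1 was lower (0.671%, against 0.0415%). In 44.3% of the 149 pairs both trained pools were above both controls, against 17.6% of all pairs, and the median log2 difference was 0.39. Of these pairs with both trained pools above, 66 in all, 14 were Tsc22d3. The list was chosen with earlier results of these data known, so its shares are no test. Of the 10 higher pairs, 6 were Tsc22d3, 3 lay in EC1 and the last was Sgk1 in MyOligo. The EC1 genes were Cdkn1a, Map3k6 and Sult1a1. Cdkn1a, an inhibitor of the cell cycle, had 171 and 199 CPM in controls and 539 and 281 CPM after training. Map3k6, a stress kinase, had 5.63 and 8.45, then 41.8 and 23.3 CPM, with only 5 and 7 counts in the control pools. Sult1a1, a sulfotransferase, had 19.1 and 30.2, then 71.7 and 52.8 CPM. Lcn2, an iron-carrier binding protein, fell in EC1 from 105 and 32.6 CPM to 20.3 and 6.21 CPM, but 44.1% of its counts in the male control pool lay in a single cell, and it was not called without that pool (adjusted p = 0.750).

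Sgk1, a kinase induced by serum and glucocorticoids, was called in MyOligo on the male pools alone. It stood at 104 and 91.6 CPM in controls and at 820 and 87.3 CPM after training, with 90.4 and 112 CPM in the naris-occluded pools. Of the 111 MyOligo cells of the male trained pool, 66.7% held a count of Sgk1, and the highest count in a cell was 13 of 279, against 22.8% to 29.9% of cells in the other trained and control pools. The adjusted p was 0.0471 with the groups overlapping, and the log2 difference was −0.17 without the male trained library. Fkbp5, a chaperone of the steroid receptor, was tested in MicroG2 and OEC4 only and was not called. In OEC4 it had 3.06 and 2.84 CPM in controls and 13.98 and 8.90 CPM after training (adjusted p = 0.403). Per1, which responds to steroids and to the clock, was tested in 4 clusters and called in none.

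Hspa8, the constitutive Hsp70 chaperone, rose in 7 clusters: EC1, EC2 and all 5 OEC clusters. In EC1 it had 609 and 850 CPM in controls, 1990 and 1148 CPM in trained pools and 579 and 835 CPM in naris-occluded pools, a log2 difference of 1.11 ± 0.20 (adjusted p = 0.0156). The differences in the other 6 clusters were between 0.78 and 1.01 on the log2 scale. The male trained pool had the highest level in each of the 7. Hspa8 was above 0 on the log2 scale in all 22 clusters, and in 18 of them both trained pools exceeded both controls. Dnaja1, which delivers clients to Hsp70, rose in EC1 from 226 and 281 to 529 and 391 CPM and in OEC4 from 241 and 234 to 381 and 317 CPM. No other gene of the heat shock and chaperone list was called. Of 324 pairs on that list, 9 were higher (2.78%, against 0.0740% of all pairs) and none lower. Both trained pools were above both controls in 36.7% of the list's pairs, against 17.6% of all pairs, and the median log2 difference was 0.24. Without the male trained library Hspa8 was called in EC1 only (adjusted p = 0.0198), without the male control library in none of the 7 (adjusted p between 0.0598 and 0.566), and without the female control library in all but OEC4 (0.299). With the trained and control libraries only it was lost in EC1 (0.0640) and OEC5 (0.0732), with cells of at least 1000 UMIs in EC1 (0.0614), EC2 (0.597) and OEC3 (0.151), and with cells of at most 20% mitochondrial UMIs in EC2 (0.297). DESeq2 called Hspa8 in OEC1 and OEC3 only. Neither call of Dnaja1, in EC1 and OEC4, held without the male trained (0.105 and 0.668), the male control (0.467 and 0.758) or the female control library (0.0586 and 0.660), with cells of at least 1000 UMIs (0.0764 and 0.0521) or by DESeq2, and the EC1 call was also lost with the trained and control libraries only (0.0697).

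Cirbp, a cold-inducible RNA-binding protein, fell in 5 clusters. In OEC4 it stood at 332 and 286 CPM in controls and at 158 and 192 CPM after training, with 306 and 277 CPM in naris-occluded pools, a log2 difference of −0.82 ± 0.13 (adjusted p = 0.00112). The differences in EC1, OEC1, OEC2 and OEC5 were −0.76, −0.77, −0.88 and −1.03. It was below 0 on the log2 scale in 20 of 21 clusters tested, and both trained pools lay below both controls in 19. Like Hspa8, it was further from controls in the male trained pool, and without that pool it was called in OEC4 only (adjusted p = 0.0345). Without the male control library it was called in none of the 5 (adjusted p between 0.0598 and 0.468), and without the female control library it was lost in EC1 (0.117) and OEC1 (0.138). With the trained and control libraries only it was lost in EC1 (0.0931) and OEC5 (0.0732), and with cells of at least 1000 UMIs in EC1 (0.100), and DESeq2 called it in OEC4 only.

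**Figure D3:**
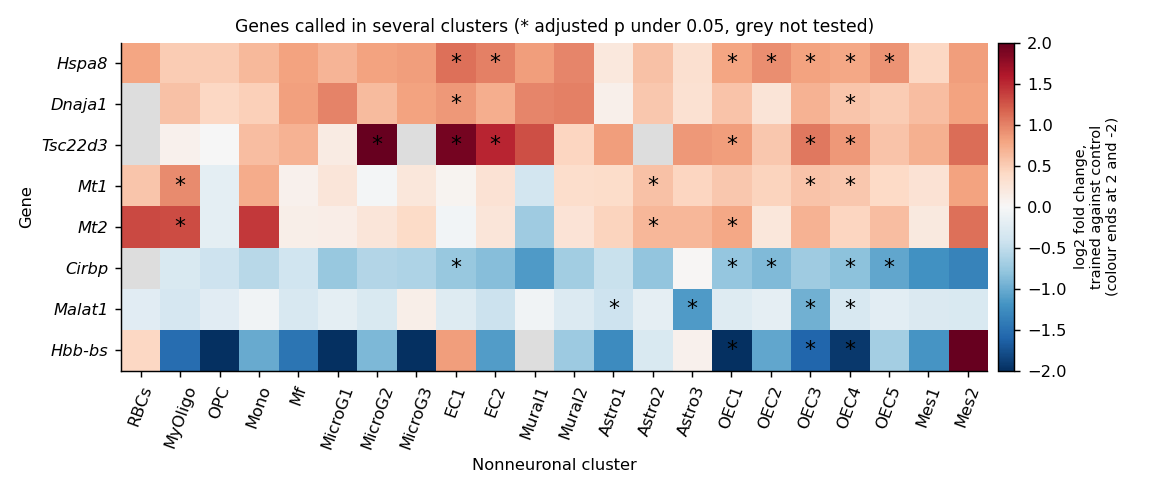
Log2 difference between trained and control libraries of the 7 genes called in the same direction in at least 3 clusters and of Dnaja1, by nonneuronal cluster, as colors that end at 2 and −2, with stars at called pairs and grey where a gene was not tested. Hspa8 is above 0 in all 22 clusters and Cirbp below 0 in 20 of the 21 where it was tested.

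The metallothioneins Mt1 and Mt2, which bind zinc and copper, rose in oligodendrocytes. In MyOligo, Mt2 had 128 and 118 CPM in controls, 294 and 318 CPM in trained pools and 142 and 186 CPM in naris-occluded pools (log2 difference 1.31 ± 0.19, adjusted p = 0.000967). Mt1 rose there from 1418 and 1224 CPM to 2658 and 2445 CPM, by 0.95 ± 0.14 on the log2 scale (adjusted p = 0.00144). The groups were well apart in both sexes, and both genes passed under every alternative run. Cells with a count of Mt2 made up 30.5% and 28.3% of control and 41.4% and 47.9% of trained MyOligo cells. Mt1 also rose in Astro2, OEC3 and OEC4 and Mt2 in Astro2 and OEC1, by between 0.53 and 0.78 on the log2 scale. None of these 5 calls held without the male control library (adjusted p between 0.195 and 0.755), and 4, 3 and 3 of them were lost without the female control, male trained and female trained library. The highest levels were in Astro2, where Mt1 had 9845 and 10755 CPM in controls and 14261 and 16671 CPM after training. Of 328 pairs on a list of metallothionein and oxidative stress genes, 7 were higher (2.13%, against 0.0740% of all pairs), all of them Mt1 or Mt2. Both trained pools were above both controls in 26.2% of the list's pairs and below in 13.1%, against 17.6% and 17.4% of all pairs. The median log2 difference over the list was 0.06.

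The other genes called in MyOligo, where 0.121% of 6587 genes were called in all, had varied functions. Polr3e, a subunit of RNA polymerase III, rose from 95.5 and 89.4 CPM to 282 and 186 CPM. Adipor2, an adiponectin receptor, rose from 56.3 and 82.7 to 203 and 152 CPM, and Cerk, the ceramide kinase, from 46.0 and 51.4 to 144 and 118 CPM. Arid5b, a chromatin regulator, was also higher. Fabp5, a fatty acid-binding protein, fell from 1192 and 1090 to 741 and 721 CPM. Of the 7 higher genes, 2 (Mt1 and Mt2) were called again without the male control library, 6 without the female control and 4 without the male trained library, and Fabp5 was lost without either control library (adjusted p = 0.519 and 0.143). Of 174 pairs on the myelin list, 1 was called, Mal in EC1, which was higher (0.575%, against 0.0740% of all pairs). Both trained pools were above both controls in 18.4% of the list's pairs and below in 20.1%, against 17.6% and 17.4% of all pairs.

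EC1, the larger endothelial cluster, had the most calls, 25 higher and 4 lower of 8665 genes tested. Klf4, a transcription factor that responds to blood flow, rose from 284 and 270 CPM to 686 and 507 CPM, with 261 and 281 CPM in naris-occluded pools (log2 difference 1.11 ± 0.16, adjusted p = 0.000952). Plat, the tissue plasminogen activator, rose from 215 and 229 to 545 and 442 CPM. Slc2a1, the glucose transporter of the blood-brain barrier, rose from 878 and 1014 to 1868 and 1369 CPM (0.78 ± 0.14, adjusted p = 0.0193). Levels of these 3 genes were higher in every trained than in every control pool, and higher in the male than in the female trained pool.

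Other genes called in EC1 had varied functions, and those named here were in part chosen after their values were seen. Id1 and Id3, targets of bone morphogenetic proteins, rose from 1464 and 1323 to 2497 and 2064 CPM and from 1616 and 1583 to 2235 and 2222 CPM. Smad7, an inhibitor of the same pathway, rose from 49.5 and 54.3 to 104 and 102 CPM. Igfbp3, which binds insulin-like growth factors, rose from 7.88 and 8.45 to 35.9 and 32.6 CPM, by 2.05 ± 0.41 on the log2 scale (adjusted p = 0.029). Each control pool held only 7 counts of it. Plxna2, a semaphorin receptor, rose from 30.4 and 43.5 to 133 and 66.7 CPM, whereas Nrp1, a coreceptor of semaphorins and of vascular endothelial growth factor, fell from 340 and 302 to 197 and 203 CPM. Nrp1 was also low in the naris-occluded pools, at 218 and 204 CPM. Gch1, Bcl2l1, Maff, Dusp6, Skil and Atp10a were among the other genes that rose.

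Of 199 pairs on the blood-brain barrier list, 1 was higher (0.503%, against 0.0740% of all pairs), Slc2a1 in EC1, and the median log2 difference was −0.02. Cldn5, the main tight-junction protein, had 7198 and 7609 CPM in control and 5746 and 7573 CPM in trained EC1 cells (−0.15 ± 0.10, adjusted p = 0.711). The summed endothelial markers in EC1 were 17370 and 18740 CPM in controls and 16270 and 19530 CPM after training, and the hemoglobin genes summed to 3379, 849, 917 and 8231 CPM in the male control, female control, male trained and female trained pools. In all, both trained pools were above both controls for 18.9% of EC1 genes. The number of higher genes was 21 without the male trained library, of which 8 were among the 25, 152 without the female trained one, 7 without the female control and 1, Tsc22d3, without the male control, and DESeq2 called 6. The number of lower genes was 6, with 1 of the 4 among them, 72, 1 and 0 without the same libraries. Of the genes given above, Slc2a1 (adjusted p = 0.0746), Smad7 (0.0640), Igfbp3 (0.202), Plxna2 (0.415), Nrp1 (0.124), Cdkn1a (0.188), Map3k6 (0.662) and Sult1a1 (0.355) were lost without the male trained library, as were Gch1, Bcl2l1, Maff, Dusp6, Skil, Dnaja1 and Cirbp (between 0.105 and 0.643). With cells of at least 1000 UMIs, 5 were higher and none lower. With the trained and control libraries alone, 3 were higher and none lower.

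Astro1, the largest astrocyte cluster, had 11 genes higher and 5 lower of 9623 tested. Etnppl, an astrocyte enzyme that breaks down phosphoethanolamine, rose from 204 and 164 CPM to 487 and 387 CPM, while naris-occluded pools had 166 and 145 CPM. The log2 difference was 1.24 ± 0.13 (adjusted p = 2.89e-05), and Etnppl passed under every alternative run. It was found in 26.9% and 24.7% of control and in 51.7% and 42.1% of trained Astro1 cells. Rmst, a long noncoding RNA of neural progenitors, rose from 34.7 and 27.5 to 95.5 and 83.7 CPM (adjusted p = 0.00123), a call lost without the female control library (adjusted p = 0.0923). Herpud1, which acts in the degradation of misfolded proteins, rose from 42.6 and 36.6 to 83.4 and 82.4 CPM. Of the 16 calls, without the female control library only Etnppl and Malat1 held, and without the male control or male trained library 4 held. With the trained and control libraries only, Etnppl, Rmst and Cdh19 held, and none of the 5 lower genes did. The adhesion genes Cdh19 and Sdc4 and the helix-loop-helix inhibitor Id4 rose by between 0.64 and 0.92 on the log2 scale. Gfap, the intermediate filament of reactive astrocytes, stood at 207 and 215 CPM in controls and 270 and 212 CPM after training (adjusted p = 0.813). No gene of the list of transmitter and ion uptake was called in 260 pairs, where 0.0740% of all pairs were higher and 0.0415% lower. Both trained pools were above both controls in 21.5% of the list's pairs and below in 11.9%, against 17.6% and 17.4% of all pairs.

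Fabp7, a fatty acid-binding protein of radial glia, young astrocytes and OECs, fell in Astro1 and Astro2. In Astro2 it had 2014 and 2246 CPM in controls, 863 and 875 CPM in trained pools and 1269 and 1319 CPM in naris-occluded pools (−1.29 ± 0.22, adjusted p = 0.000116), and the call held under every alternative run. The Astro2 pools were small, between 33 and 73 cells, and in the female control pool 41.3% of the Fabp7 counts lay in a single cell. The other 4 OEC markers in Astro2 also moved, from 547 and 332 CPM in controls to 223 and 124 CPM after training, and the endothelial markers from 164 and 120 to 63.7 and 41.2 CPM. The part of RNA from such cells in the fall of Fabp7 was not tested. In Astro1, Fabp7 fell from 3091 and 2780 to 1879 and 2027 CPM (−0.59 ± 0.11), and the other OEC markers stood at 797 and 803 CPM in controls and 935 and 866 CPM after training. The summed OPC markers in Astro1 also moved, from 317.5 and 341 CPM in controls to 203 and 228.5 CPM after training, and their part in the fall was not tested. Without the male control library the Astro1 call was lost (adjusted p = 0.424), as it was without the female control (0.104) or male trained (0.0640) library. Igfbp2, which binds insulin-like growth factors, fell in Astro1 from 1600 and 1885 to 1030 and 1221 CPM, but the naris-occluded pools, at 1308 and 1170 CPM, lay near the trained ones, and the call was lost without either control library (adjusted p = 0.0683 and 0.517) and without the male trained library (0.141).

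The 3 calls in Astro2, Fabp7, Mt1 and Mt2, were 0.133% of 2261 genes, and the only call in Astro3, Malat1, was 0.0304% of 3293. Malat1, an abundant nuclear RNA, fell in Astro1, Astro3, OEC3 and OEC4. In OEC3 it had 40759 and 45955 CPM in controls, 24175 and 20466 CPM in trained pools and 30753 and 50147 CPM in naris-occluded pools, a log2 difference of −0.96 ± 0.12 (adjusted p = 1.18e-06). In Astro3 it stood at 18498 and 15392 CPM in controls and at 6996 and 8558 CPM after training. The falls in Astro1 and OEC4 were smaller, −0.41 and −0.32 on the log2 scale. The call in Astro1 was lost with the trained and control libraries only (adjusted p = 0.0660). With the replicate block the calls in Astro1 (0.131) and OEC4 (0.606) were lost. The call in Astro3 was lost with cells of at least 1000 UMIs (0.128) and with mitochondrial and hemoglobin genes left out (0.0930), and DESeq2 called none of the 4. Without the male control library the log2 difference in Astro3 was −0.98. In OEC4 it was −0.39 without the male and −0.25 without the female control library. The Astro3 call was lost without the male control library, and the OEC4 call without either control library. Rsrp1, which codes for an arginine- and serine-rich protein, fell in Astro1 and OEC3. The median UMI count of astrocytes was 1467 and 1214 in controls and 900.5 and 1192.5 after training, with median mitochondrial shares of 12.5%, 14.8%, 18.3% and 13.8% in the same order, and the part of this in the level of Malat1 was not tested.

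In OEC2 most called genes were lower, 19 of 23, among 7768 genes tested, which apart from the single call of Astro3 held in no other cluster. Of the 19, 8 were on the interferon list. Beside Cirbp, the 19 included Isg15, a ubiquitin-like protein; Ifit1, Ifit3 and Ifit3b, which sense viral RNA; Oasl2, Rtp4, Ddx60, Usp18, Tlr3, Nmi and Gm4951; the immunoproteasome subunits Psmb8 and Psmb10; and the GTPases Gbp3, Gbp7, Igtp and Iigp1. Many interferon-induced genes carry the interferon-stimulated response element, with the core GAAA, any 2 bases, GAAA, in front of their start. Of the 19 genes, 14 had a promoter window in the RefSeq table for GRCm38.p6. In 8 of the 14 this core occurred on either strand within the 250 bases before the start, in any window of the gene. Of all 32851 windows 2.98% held it, a share of single windows that is not in the same unit, since a gene can have several windows. The 150 bases before the start are shown for 4 of these 8, to show where the core lies in front of genes described next, with the core in capitals, in the direction of the gene and in reverse complement where capitals begin with TTTC. Overlapping copies are joined. The windows are at chr4:156200819-156200968 on the minus strand for Isg15 and on the plus strand at chr19:34583379-34583528 for Ifit3, chr19:34640739-34640888 for Ifit1 and chr8:61927937-61928086 for Ddx60.
Isg15: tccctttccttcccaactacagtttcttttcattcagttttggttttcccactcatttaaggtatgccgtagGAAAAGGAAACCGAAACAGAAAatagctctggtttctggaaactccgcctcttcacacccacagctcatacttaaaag
Ifit3: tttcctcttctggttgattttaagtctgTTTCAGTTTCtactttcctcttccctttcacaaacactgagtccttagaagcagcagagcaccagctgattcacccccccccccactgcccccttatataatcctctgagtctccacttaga
Ifit1: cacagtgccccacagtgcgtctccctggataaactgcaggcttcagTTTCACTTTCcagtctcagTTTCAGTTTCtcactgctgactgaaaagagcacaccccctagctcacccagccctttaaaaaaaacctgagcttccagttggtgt
Ddx60: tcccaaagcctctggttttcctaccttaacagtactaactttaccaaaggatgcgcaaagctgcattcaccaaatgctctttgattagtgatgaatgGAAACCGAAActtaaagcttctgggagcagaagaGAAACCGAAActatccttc

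Isg15, with 3 overlapping copies of the core, had 1042 and 411 CPM in the control pools of OEC2, 125 and 271 CPM in the trained and 182 and 533 CPM in the naris-occluded pools. The log2 difference was −1.89 ± 0.35, with an adjusted p of 0.00675. The male control pool stood far above the other 5, and the female naris-occluded pool was above the female control. Ifit3 went from 688 and 296 CPM to 89.8 and 196 CPM, with 123 and 297 CPM in naris-occluded pools (−1.80 ± 0.32, adjusted p = 0.00549). Ifit1, with 2 copies, fell from 406 and 205 to 58.1 and 151 CPM, and Ddx60, a helicase with 2 copies, from 75.4 and 37.3 to 3.52 and 16.4 CPM. Psmb8 fell from 170 and 73.2 to 19.4 and 38.2 CPM, Usp18, which removes Isg15 from proteins, from 120 and 38.8 to 10.6 and 16.4 CPM, and Gm4951 from 103 and 65.7 to 3.52 and 18.2 CPM. The male naris-occluded pool was low as well, at 43.7, 10.6 and 3.54 CPM for the last 3 genes. Counts in the male and female trained pools were few, with 2 and 9 for Ddx60, 6 and 9 for Usp18 and 2 and 10 for Gm4951.

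**Figure D4:**
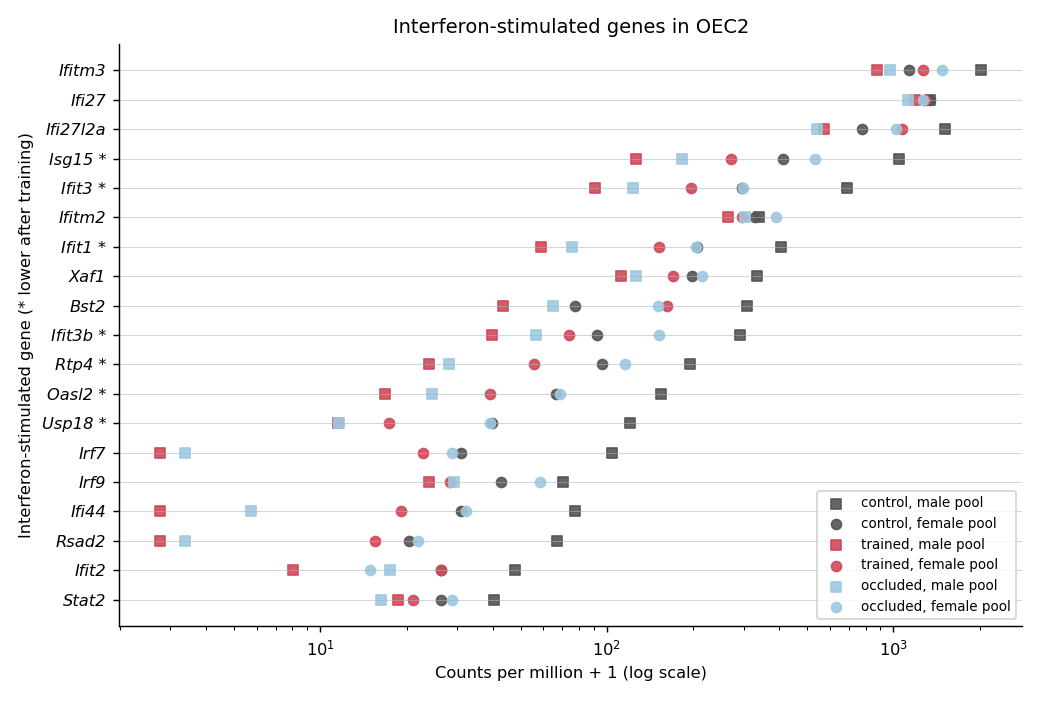
Levels of 19 of the 20 genes of the interferon list in OEC2, as CPM plus 1 on a log axis, in each of the 6 libraries, with squares for male and circles for female pools and a star at the 7 of them called lower. The male control pool is highest for most of them, such as Isg15 at 1042 CPM, and the male trained and male naris-occluded pools are mostly lowest.

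All 20 genes of the interferon list were tested in OEC2, where 8 were lower and both trained pools lay below both controls for 16, against 17.1% of all OEC2 genes, with a median log2 difference of −1.48. Summed over the list, however, OEC2 levels were 9005 and 5164 CPM in controls, 3407 and 5099 CPM after training and 3651 and 5971 CPM in naris-occluded pools, so that the female pools differed little. Over all clusters the list had 236 pairs, of which 8 were lower, all in OEC2 (3.39%, against 0.0415% of all pairs), and none higher. Both trained pools lay below both controls in 37.7% of the list's pairs and above in 3.81%, against 17.4% and 17.6% of all pairs. The median log2 difference was −0.33. Ifit3 was below 0 on the log2 scale in all 13 clusters where it was tested. Isg15 was found in 43.5% and 27.2% of control and 14.9% and 26.7% of trained OEC2 cells. In RBCs, 13.8% and 17.4% of control, 14.3% and 18.2% of trained and 7.41% and 3.33% of naris-occluded cells held a count. These pools held 80 and 23 control, 21 and 11 trained and 54 and 30 naris-occluded RBCs. In the female control pool 1 RBC held 9 of the 17 counts, so RBCs set no background level for OEC2. The median depth was 2141 to 2314 UMIs in OEC2 and 3518 to 5242 UMIs in RBCs in the trained and control libraries.

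With the replicate block, 16 of the 19 lower genes of OEC2 were called again by edgeR's test. Gbp3 (adjusted p = 0.0526), Ifit3b (0.0511) and Tlr3 (0.0535) were not. The OEC2 calls also depended on single libraries. Without the male trained library none of the 19 was called, and Isg15 had an adjusted p of 0.263. Without the male control library 1, Iigp1, was called (adjusted p = 0.00933), and DESeq2 called none. Without the female control library all 19 were called again, among 51 lower genes, and without the female trained library all 19 again among 46. The 4 higher genes in OEC2 were Hspa8, Htra1, Aqp1 and Hpgd, none of which was called without the male control or the male trained library. Htra1, a secreted protease, rose from 340 and 324 to 592 and 538 CPM, Aqp1, a water channel, from 290 and 270 to 454 and 403 CPM, and Hpgd, which degrades prostaglandins, from 81.4 and 95.5 to 181 and 147 CPM.

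OEC4, rich in Npy, had 17 genes higher and 7 lower of 9711 tested. Gpt2, a mitochondrial alanine transaminase, rose from 133 and 146 to 244 and 232 CPM (log2 difference 0.77 ± 0.12, adjusted p = 0.00112). Ahsa2, a cochaperone of Hsp90, rose from 11.5 and 13.3 to 53.6 and 28.5 CPM, and Serpinh1, a collagen chaperone, from 80.4 and 91.9 to 148 and 126 CPM. Aatk, a kinase, Ltbp2, a matrix protein, Pmepa1, which dampens signaling by transforming growth factor beta, and Htra1 also rose, by between 0.55 and 1.17 on the log2 scale. Npy itself stood at 21363 and 21388 CPM in controls and 19578 and 21350 CPM after training (−0.06 ± 0.08, adjusted p = 0.973). DESeq2 called none of the 17 higher genes, and of the 7 lower ones only Cirbp. Of the 17 higher genes, Srsf3 alone was called without the male control library, Ltbp2 alone without the female control library, 6 without the male trained and 12 without the female trained library.

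The remaining OEC clusters had fewer calls, 8 in OEC1 or 0.0883% of 9057 genes, 8 in OEC3 or 0.123% of 6498, and 5 in OEC5 or 0.0920% of 5433. Xbp1, a transcription factor of the unfolded protein response, rose in OEC1 from 60.8 and 51.0 to 135 and 104 CPM, and Plce1, a phospholipase, from 130 and 140 to 225 and 249 CPM. Col27a1, a collagen, fell in OEC3 from 91.6 and 81.5 to 29.8 and 33.1 CPM (−1.47 ± 0.29, adjusted p = 0.0127), a call lost with cells of at most 20% mitochondrial UMIs (0.108). With cells of at least 1000 UMIs, 1 of the 8 calls in OEC3 was left, the lower one of Malat1 (adjusted p = 0.0374), and Col27a1 was not called (0.269). In OEC5, Btg2 rose from 65.5 and 66.0 to 156 and 199 CPM and Klf2 from 148 and 136 to 382 and 309 CPM, both genes of the immediate early list, and Sema6d, a semaphorin, fell from 128 and 140 to 35.6 and 49.8 CPM. The naris-occluded pools of OEC5 had 98.1 and 261 CPM of Klf2, so the female one lay between the groups. DESeq2 called none of these genes in OEC5, only Hspa8 in OEC1, and only Hspa8 and Mt1 in OEC3. Without the male control library no call in OEC5 held, and 1 each in OEC1 (2900052N01Rik) and OEC3 (Malat1). Without the male trained library Plce1 and Hbb-bs held in OEC1, Malat1 in OEC3 and Btg2 in OEC5.

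**Figure D5:**
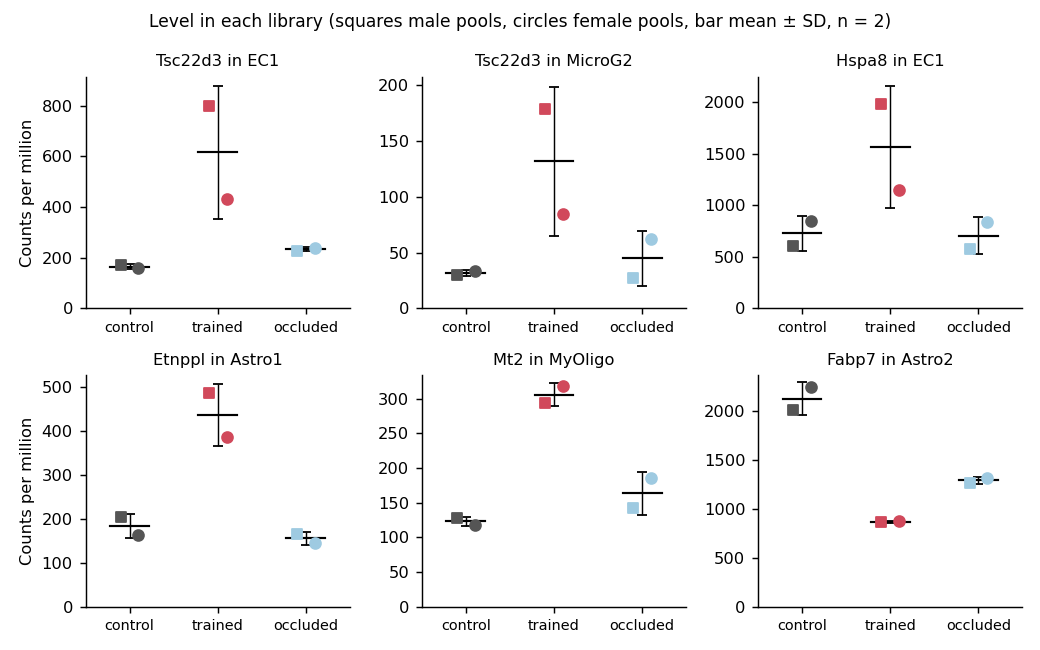
Levels of leading genes in the cluster where each was called, in CPM on a linear axis from 0, for each library with squares for male and circles for female pools, and bars at the mean ± SD (n = 2). Tsc22d3 in EC1, Etnppl in Astro1 and Mt2 in MyOligo are higher in both trained pools than in the other 4 libraries, and Fabp7 in Astro2 is lower.

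Hemoglobin genes, which mark red blood cells, were lower in several OEC clusters. Hbb-bs fell in OEC1, OEC3 and OEC4, and Hba-a1 and Hba-a2 fell in OEC4. Hba-a1 had 183 and 7.58 CPM in control OEC4 cells and 9.32 and 7.12 CPM in trained ones, and 91.2% of its counts in the male control pool came from a single cell. The same held for 77.1% of those of Hba-a2 in OEC4 and 59.0% of those of Hbb-bs in OEC1. Without the male control library none of the 5 was called, and Hba-a1 was at 0.13 on the log2 scale. Over all nonneuronal cells hemoglobin genes summed to 22800, 8589, 7239 and 7290 CPM in the male control, female control, male trained and female trained pools.

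The count of calls in immune cells depended on the analysis, as it did for other clusters. Beyond Tsc22d3 in MicroG2, the largest microglial cluster, no gene was called in microglia, monocytes or macrophages in the reported analysis. P2ry12, the purine receptor of resting microglia, stood at 2165 and 2200 CPM in control and 1700 and 2502 CPM in trained MicroG2 cells (−0.06 ± 0.16, adjusted p = 0.990). None of 149 pairs of the homeostatic list, 172 of the complement and phagocytosis list or 109 of the chemokine and cytokine list was called, with median log2 differences of 0.01, −0.01 and −0.04. Over all pairs, 0.0740% were higher and 0.0415% lower. Both trained pools were above both controls in 18.8%, 18.6% and 12.8% of the pairs of these lists and below in 15.4%, 17.4% and 13.8%. On the microglial activation list 1 of 223 pairs was lower, Fabp5 in MyOligo, and on the antigen presentation list 1 of 160, Psmb8 in OEC2. These were 0.448% and 0.625% of the pairs, against 0.0415% of all pairs. Both trained pools lay below both controls in 30% of the activation pairs and above in 12.6%, and in 26.2% and 10.0% of the antigen presentation pairs, against 17.4% and 17.6% of all pairs, with median log2 differences of −0.12 and −0.15. Apoe, the lipid carrier, had 29318 and 34628 CPM in control and 28972 and 33859 CPM in trained Astro1 cells.

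Genes of activity and of the clock gave no more than scattered calls. Of 291 pairs of immediate early genes 3 were higher (1.03%, against 0.0740% of all pairs), Klf4 in EC1 and Btg2 and Klf2 in OEC5. Both trained pools were above both controls in 32.6% of the list's pairs, against 17.6% of all pairs. Fos, the classic activity gene, had 235 and 293 CPM in controls and 262 and 438 CPM after training over all nonneuronal cells (0.41 ± 0.21, adjusted p = 0.787), and Junb had 237 and 295, then 278 and 396 CPM. No clock gene was called in 163 pairs, although both trained pools were above both controls in 37.4% of them, again against 17.6%, and the median log2 difference was 0.24. Dbp, an output gene of the clock, had 113 and 102 CPM in controls and 106 and 123 CPM after training. Igf1, a growth factor, had 162 and 151 CPM and 142 and 170 CPM, and Pdgfrb, the receptor of pericytes, had 1606 and 1395 CPM in control and 1314 and 1563 CPM in trained Mural2 cells.

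With all nonneuronal cells summed, where a change in a cluster's share also moves a gene, no gene of 14663 was called (0%) by edgeR's quasi-likelihood test. An unadjusted p under 0.05 was found for 993 genes, DESeq2 called 21, and edgeR called 52 without the female trained library. Tsc22d3, at 107 and 117 CPM in controls and 270 and 176 CPM after training, and Cirbp, at 268 and 233 CPM and then 138 and 177 CPM, had adjusted p-values of 0.249.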

How the data were processed

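Cells were captured from 6 libraries with the Chromium 3′ v2 chemistry. The authors aligned reads to mm10 and counted UMIs with Cell Ranger 2.0.0, clustered cells with Seurat 2.2.1 after removing doublets, and deposited raw UMI counts for each barcode, with an annotation holding each cell's library, cluster and mitochondrial fraction as the authors computed them. For trained cells, the prefix of the cell name points to the other trained library than the library column does. The column was used, and sex-linked genes match it.

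Counts were summed per cluster and library, for the 18560 genes of the table. With edgeR 4.0.16 (R 4.3.3), each cluster with at least 10 cells in every library was fitted on all 6 libraries by group, with TMM factors and filterByExpr, and trained libraries were compared with controls by the quasi-likelihood test, with Benjamini-Hochberg adjustment at 0.05 within the cluster. CPM are TMM-scaled, except for sums over gene lists. Shares were tested the same way on numbers of cells, with the nonneuronal cells of the library as offset. The gene test was run on simulated counts for EC1 and OEC2, and the test of shares was not. An exact permutation test of 2 against 2 libraries cannot go below p = 0.333. In the trained and control libraries, clusters held between 11 and 712 cells and between 47173 and 1320037 UMIs per library, so small clusters test fewer genes. Shares of cells with a count rise with depth.

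Named genes were, in each cluster, the 3 with the largest change among those called with the same sign in both sexes and at least 50 CPM, genes called in at least 3 clusters, up to 4 called members of each of 33 gene lists, and a set given whatever its result. Of the genes this rule covers or counts, 2 are not reported here by name. Other genes were chosen after their values were seen. Members, lists and this rule were chosen with earlier results of these data known. Alternatives were a replicate block, DESeq2 1.42.0, other filters, offsets and cells, a chi-square test on pooled cells and leaving out each library.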

Additional observations from a re-analysis of the deposited data

Results flagged for a closer look

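In 10 clusters the sign of the difference in share was opposite between the male and the female pools, as it was for Sgk1 in MyOligo. For Astro3 the female pools were nearly equal, at 6.17% each. Each sex had 1 trained and 1 control library, so these differences between the sexes were not tested. The male log2 difference minus the female one was 1.52 for Mural1, 0.89 for Mes2, 0.89 for EC2, 0.75 for Astro3, 0.38 for OPC and 0.28 for EC1. It was −0.79 for Mono, −0.37 for MicroG1, −0.27 for OEC5 and −0.23 for Mural2. For Sgk1 in MyOligo it was 3.04, from a male difference of 2.97 and a female one of −0.07.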

How the results depend on the processing

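With 2 libraries a group, calls moved with single libraries. Clusters that differed in share numbered 0 in the reported analysis, 1 with a replicate block, 1 with all annotated cells as offset, 1 with cells of at most 20% mitochondrial UMIs, each time RBCs, 11 by the chi-square test on pooled cells, and 0 to 4 without 1 library. Classes numbered 1, and 0 with the trained and control libraries only, with all annotated cells as offset, with TMM factors, with cells of at least 1000 UMIs or at most 20% mitochondrial UMIs, 3 by the chi-square test, and 0 to 1 without 1 library. The 82 higher pairs became 49 with adjustment over all pairs, 54 with the trained and control libraries only, 15 by DESeq2, 227 without the filter on low counts, 50 with cells of at least 1000 UMIs, and 25 to 325 without 1 library. The 46 lower pairs became 5 by DESeq2, 159 without the filter and 28 to 238 without 1 library. These counts include pairs not among the 46. Of the 46, 4 were called again without the male control library and 12 without the male trained library. The number called again was 33 without the female control library and 45 without the female trained library. With all cells summed, the count of 0 became 1 with a replicate block, 21 by DESeq2, and 0 to 52 without 1 library. In 2 named pairs the direction reversed. Without 1 library the log2 difference of Hba-a1 in OEC4 lay between −4.45 and 0.13, the latter without control replicate 1, and that of Sgk1 in MyOligo between −0.17, without trained replicate 1, and 3.05. The cause was not tested.

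Libraries with the same replicate number share the sex of the pool, and whether they share more than that is not known here. Deviations from group means of libraries with the same number correlated over 14657 genes at 0.174 for control and trained, 0.215 for control and naris-occluded and 0.0719 for trained and naris-occluded libraries, so no pairing was assumed. With the replicate block, 117 pairs were higher, 79 of them among the 82, and 68 lower, 41 of them among the 46. Genes called with the block numbered 8 higher and 3 lower in Mf, 5 and 7 in MicroG1, 4 and 3 in MicroG2, 3 and 0 in Mes2 and 0 and 3 in OPC, where at most 1 was called without it. Calls lost with the block included Malat1 in Astro1 (adjusted p = 0.131) and OEC4 (0.606), Tsc22d3 in EC2 (0.0533) and Id3 in EC1 (0.0571). Gbp3, Ifit3b and Tlr3 in OEC2 were lost as well.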

Other observations

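No clock gene was called, and differences of single genes lay on both sides of 0. Per3, Tef and Nr1d2 were each above 0 on the log2 scale in 14 clusters, of 17, 16 and 16 tested, with median differences of 0.56, 0.73 and 0.50, and Cry1 was above 0 in all 5 clusters tested. Arntl, the activator of the clock, was below 0 in 5 of 7 clusters and Nr1d1, its repressor, in 7 of 8. Over all nonneuronal cells Arntl had 26.9 and 22.6 CPM in controls and 15.8 and 19.4 CPM after training, and Cry1 had 10.5 and 10.8 CPM and then 21.3 and 16.1 CPM. These genes were picked after their values were seen.

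Genes of cholesterol synthesis and uptake were called in none of 191 pairs, and both trained pools were below both controls in 19.9% of them and above in 7.33%, against 17.4% and 17.6% of all pairs, with a median log2 difference of −0.13. No pair was called among 128 of the angiogenesis and hypoxia list, 72 of the contractile list, 65 of the pericyte list, 131 of the astrocyte synapse list, 84 of the oligodendrocyte precursor list, 154 of the extracellular matrix list, 116 of the cell division list, 283 of the mitochondrial genome, 276 of neurons, 95 of olfactory sensory neurons, 10 of neutrophils or 65 of sex-linked genes. Over all pairs 0.0740% were higher and 0.0415% lower, to be read beside the shares that follow. The list of osmolyte genes had 2 higher pairs of 143 (1.4%), Aqp1 in OEC2 and Sgk1 in MyOligo. Both trained pools were above both controls in 24.5% of its pairs and below in 18.2%, against 17.6% and 17.4% of all pairs. Of 124 pairs of reactive astrocyte genes 1 was lower (0.806%), Lcn2 in EC1. Of 262 pairs of OEC genes 1 was higher (0.382%) and 2 were lower (0.763%), the latter being Fabp7 in Astro1 and Astro2. Of 203 growth factor pairs 1 was higher and 1 lower (0.493% each), Igfbp3 in EC1 and Igfbp2 in Astro1. Of 150 pairs of abundant nuclear RNAs 4 were lower (2.67%), all of them Malat1.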
